A study of Mus musculus with 10 samples.

Results

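The TAM family is formed by the receptor tyrosine kinases Tyro3, Axl and Mertk, and by the secreted ligands Gas6 and Pros1 that bridge them to dying cells. These 5 genes were chosen by name as members of the family, when earlier results of these data were already known. All 5 were among the 41249 genes counted in interscapular brown adipose tissue (iBAT). The depot was taken from 10 mice on a high-fat diet (HFD), 5 with a whole-body constitutive loss of Axl (Axl KO) and 5 wild-type controls (WT). All 10 mice received the HFD, ad libitum and at room temperature, for 24 weeks from an age of 6 to 8 weeks, so no mouse on a standard diet enters the comparison. The mice were male, and the WT mice were littermates of the Axl KO mice. The Axl KO mice carried the homozygous "knockout-first" tm1a allele, in which a cassette with a splice acceptor, LacZ and a neomycin resistance gene was placed between exons 4 and 5 of Axl. Because every cell of the mouse carried the allele, a difference in the depot cannot be assigned to one of its cell types. The line was derived from ES cell clones H04 and D04, and which clone an animal descended from is not given in the sources used here.

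TAM receptors carry immunoglobulin-like and fibronectin type III domains outside the cell and a tyrosine kinase domain inside it. The ligands attach to phosphatidylserine, a lipid that dying cells expose on their surface, through a Gla domain whose glutamates are carboxylated with the help of vitamin K. GAS6 binds all TAM receptors, whereas PROS1 (protein S, also an anticoagulant plasma protein) binds TYRO3 and MERTK. MERTK is best known for the engulfment of dying cells by macrophages, AXL for the silencing of inflammatory signals, and TYRO3 for its high expression in the nervous system. The comparison asked what loss of Axl left of TAM receptor and ligand RNA in the brown fat of mice on HFD, and whether the RNA of the remaining members differed from that in WT mice.

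The kinase domains of the receptors share a short motif that sets the TAM family apart from other receptor tyrosine kinases, and its coding sequence is shown because it makes the relationship of the receptors visible. In the GENCODE models of GRCm38 the motif was encoded by exon 18 of Axl, exon 17 of Mertk and exon 18 of Tyro3 in their longest coding transcripts. It lies at residues 708 to 714 of 888 in AXL, 760 to 766 of 994 in MERTK and 683 to 689 of 876 in TYRO3. The 45 bases around it are given 5′ to 3′ on the coding strand, with the 21 bases of the motif codons in capitals.
Axl, reverse strand, chr7:25761429-25761473: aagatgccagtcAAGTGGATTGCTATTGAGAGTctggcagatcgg
Mertk, forward strand, chr2:128793037-128793081: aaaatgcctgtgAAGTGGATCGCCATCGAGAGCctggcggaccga
Tyro3, forward strand, chr2:119812894-119812938: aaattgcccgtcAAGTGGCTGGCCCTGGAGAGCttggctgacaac
Of the 21 motif bases, Axl and Mertk had 17 in common, Mertk and Tyro3 also 17, and Axl and Tyro3 15. Over the whole aligned proteins, AXL and MERTK were identical at 47.0% of positions, MERTK and TYRO3 at 44.2%, and AXL and TYRO3 at 43.7%. The ligands GAS6 and PROS1 were identical at 41.7%. Despite this kinship, the longest stretch of identical bases between the longest coding transcripts of any pair of members was between 11 and 14.

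The allele acts at the junction of exons 4 and 5 of Axl (ENSMUSG00000002602, chr7:25757273-25788705, reverse strand of GRCm38), and the bases on both sides of that junction are shown because a transcript spliced into the cassette does not contain them side by side. The last 45 bases of exon 4 (chr7:25785834-25785878) are in lower case, and the first 45 bases of exon 5 (chr7:25778660-25778704) are in capitals.
Axl, exons 4 and 5 joined: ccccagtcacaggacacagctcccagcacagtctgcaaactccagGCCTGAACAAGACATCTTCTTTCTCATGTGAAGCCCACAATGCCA
The part of the transcript before this junction encodes 189 of the 888 residues (21.3%) and so ends before the kinase motif. The deposited values are counts over whole genes, so reads from before and after the junction cannot be told apart, and reads on the cassette are not analysed here.

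The 10 libraries held between 5431014 and 9580215 counts on genes, and 13739 genes with a mean above 1 CPM (the count scaled to the normalized size of its library) over the 10 mice were tested with edgeR's quasi-likelihood test. Ucp1, which encodes the uncoupling protein that defines brown adipocytes, stood at 4119 ± 863 CPM (SD, n = 5) in WT and 5561 ± 1200 CPM (SD, n = 5) in Axl KO mice. The 8 markers of skeletal muscle, which lies next to the depot, were uneven. Their summed level was between 702 and 3380 CPM in WT mice, but 19.8 CPM in Axl KO replicate 1 and 4.66 CPM in Axl KO replicate 2, against 546 to 2873 CPM in the other Axl KO mice. Results on the members are therefore also given without Axl KO replicates 1 and 2 where that moved them. The labels do not say whether the mice came from several litters or cages, and a depot with fewer cells of a type cannot be told apart from one with less RNA per cell.

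Among the receptors, Axl was detected in every WT mouse and nearly lost in every Axl KO mouse. The normalized counts of Axl in WT replicates 1 to 5 were 52.3, 38.2, 41.3, 38.5 and 45.2 CPM. In Axl KO replicates 1 to 5 they were 2.01, 1.95, 1.75, 0.437 and 1.69 CPM, from 3 to 15 counts per mouse. The groups did not overlap, and the lowest WT mouse lay far above the highest Axl KO mouse. Axl fell by 4.78 on the log2 scale (SE 0.201, 95% interval -5.22 to -4.35, adjusted p = 1.1e-07 with edgeR's quasi-likelihood test). It was the only gene of the 13739 called at an adjusted p below 0.05 (0.00728% of the genes tested), while 1154 genes had an unadjusted p below 0.05 and DESeq2 called 9. Without Axl KO replicates 1 and 2 the log2 fold change of Axl was -5.05.

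Mertk (ENSMUSG00000014361, chr2:128698956-128802894, forward strand), the receptor through which macrophages take up dying cells, stayed close to its WT level. Its normalized counts were 12.1, 10.3, 11.6, 11.5 and 13.1 CPM in WT replicates 1 to 5 and 12.7, 12.5, 11.1, 11.2 and 14.5 CPM in Axl KO replicates 1 to 5. The groups overlapped over most of their range, and the highest and the lowest mouse of the 10 differed by less than 1.5 times. The means were 11.7 ± 1.03 CPM (SD, n = 5) in WT and 12.4 ± 1.38 CPM (SD, n = 5) in Axl KO mice. The log2 fold change was 0.07 (SE 0.104, unadjusted p = 0.495 and adjusted p = 0.863 with edgeR's quasi-likelihood test). Its 95% interval, from -0.15 to 0.30, corresponds to a level between 0.901 and 1.23 times that of WT mice, so a difference in Mertk within these bounds was not detectable with these mice. The antisense gene Gm14011 and the small nucleolar RNA gene Gm23172 lie within Mertk without sharing an exon with it, and had 0 and at most 2 counts in any mouse.

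Tyro3 (ENSMUSG00000027298, chr2:119797733-119818104, forward strand), the TAM receptor of the nervous system, was close to the limit of detection in both genotypes. The libraries held 4, 8, 8, 2 and 6 counts of Tyro3 in WT replicates 1 to 5 and 3, 4, 7, 2 and 1 counts in Axl KO replicates 1 to 5. These correspond to 0.546, 0.846, 0.925, 0.344 and 0.755 CPM in WT and to 0.463, 0.601, 0.816, 0.291 and 0.188 CPM in Axl KO mice, with wide overlap. Tyro3 lay below the minimum of 1 CPM and was not tested by edgeR. Its means of 0.683 ± 0.237 CPM (SD, n = 5) in WT and 0.472 ± 0.249 CPM (SD, n = 5) in Axl KO mice did not differ beyond the spread between mice (difference -0.211 CPM, exact permutation test, two-sided p = 0.206). Summed over mice, the 28 counts in WT and 17 counts in Axl KO correspond to 0.714 CPM (exact Poisson 95% interval 0.475 to 1.03) and 0.502 CPM (0.292 to 0.803), intervals that cover counting error only. A difference in Tyro3 of the size seen here was not detectable at this depth.

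**Figure D1:**
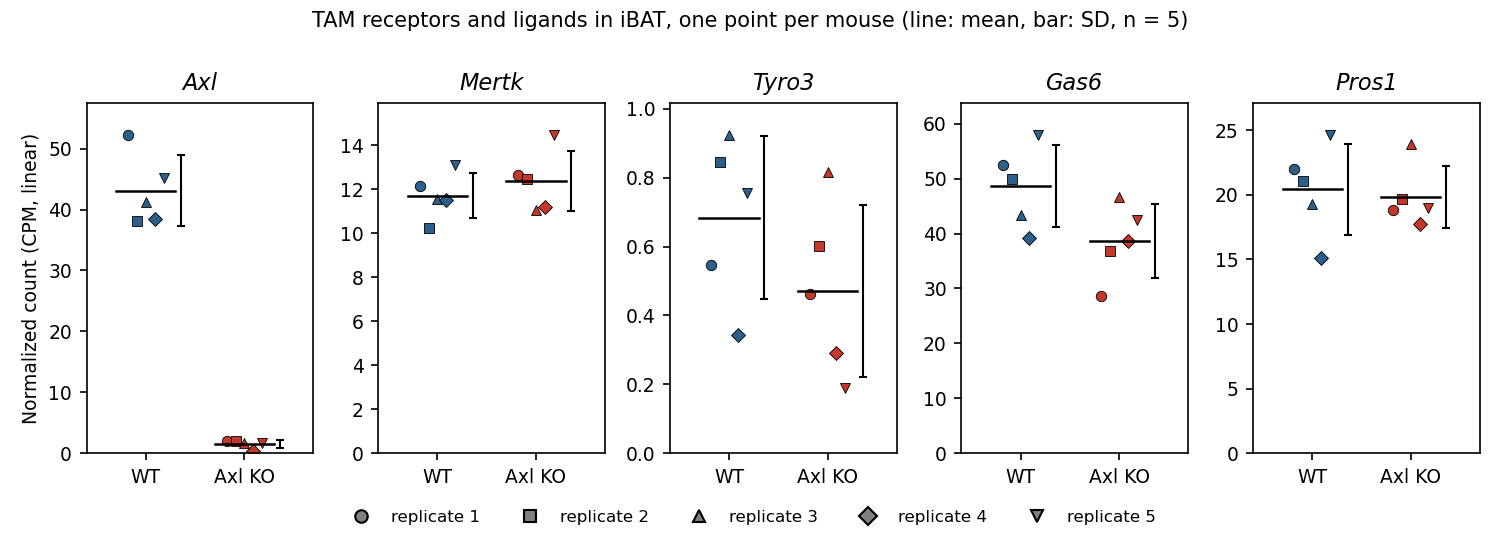
Normalized counts (CPM, linear axes from 0, a separate scale per gene) of the 5 TAM genes, with 1 point per mouse, a line at the mean and a bar for the SD (n = 5 mice per genotype). Axl separates the genotypes without overlap, Gas6 lies lower in Axl KO mice with overlap, and Mertk, Tyro3 and Pros1 overlap over most of their range.

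Gas6 (ENSMUSG00000031451, chr8:13465374-13494490, reverse strand), which encodes the ligand shared by all TAM receptors and the only ligand of AXL among them, was lower in Axl KO mice without passing the adjusted threshold. Its normalized counts were 52.6, 49.9, 43.5, 39.2 and 58.0 CPM in WT replicates 1 to 5. In Axl KO replicates 1 to 5 they were 28.7, 36.8, 46.7, 38.7 and 42.5 CPM. All 5 Axl KO mice lay below the WT median and 3 of them below every WT mouse, so the groups overlapped in part. The means were 48.6 ± 7.43 CPM (SD, n = 5) in WT and 38.7 ± 6.76 CPM (SD, n = 5) in Axl KO mice, with a log2 fold change of -0.33 (SE 0.13, 95% interval -0.61 to -0.05). The unadjusted p was 0.0252 and the adjusted p 0.571 with edgeR's quasi-likelihood test, with adjusted values from 0.196 to 0.866 over the alternatives computed, and the exact permutation test of the means gave a two-sided p of 0.0635. Of the 4 tested members, 2 had an unadjusted p below 0.05, against 8.4% of all genes tested. One of them was Axl, the targeted gene, whose call was fixed by the design. Of Mertk, Gas6 and Pros1, only Gas6 had such a p.

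Gas6 was lowest in Axl KO replicates 1 and 2, the same mice that had the lowest skeletal muscle markers. No WT mouse had muscle markers that low, so the WT mice cannot show whether such low levels go with low Gas6. WT replicate 5 had the lowest muscle markers of the WT mice (702 CPM) and the highest Gas6 of all mice (58.0 CPM). WT replicate 3 had the highest muscle markers (3380 CPM) and Gas6 at 43.5 CPM. Without Axl KO replicates 1 and 2 the log2 fold change of Gas6 was -0.19 (SE 0.123, unadjusted p = 0.154 and adjusted p = 0.866 with edgeR's quasi-likelihood test, 3 against 5 mice). Markers of other cell types are given beside it, and none of them had an adjusted p below 0.05. All 8 of 8 markers of fibroblasts and progenitors had a negative log2 fold change, with a median of -0.24 against -0.000586 over all genes tested, and 2 of them, the collagens Col1a1 (-0.43, unadjusted p = 0.029) and Col1a2 (-0.40, unadjusted p = 0.0255), had an unadjusted p below 0.05 with edgeR. Their summed level was between 488 and 654 CPM in WT and between 359 and 543 CPM in Axl KO mice (exact permutation test, p = 0.103). The summed level of the 10 brown adipocyte markers ran the other way, from 15150 to 17410 CPM in WT and from 16360 to 20810 CPM in Axl KO mice (exact permutation test, p = 0.0317). Of these 10 genes, 9 had a positive log2 fold change. An unadjusted edgeR p below 0.05 was found for 4 of them, as for 8.4% of all genes tested. These 4 were Dio2 (log2 fold change 0.89), Ucp1 (0.43), Cox8b (0.24) and Cox7a1 (0.14). Fabp4 and Ucp1 had the highest levels of the list in CPM and so weigh most in its sum. The summed level of 12 macrophage markers was between 134 and 203 CPM in WT and between 118 and 214 CPM in Axl KO mice (exact permutation test, p = 0.849). That of 6 mural cell markers was lower in Axl KO mice, between 686 and 772 CPM in WT and between 619 and 726 CPM in Axl KO mice (exact permutation test, p = 0.0317). Of these 6 genes, 5 had a negative log2 fold change, and 1, Notch3, a receptor of vascular smooth muscle cells and pericytes, had an unadjusted p below 0.05 (-0.40, unadjusted p = 0.0146 with edgeR). Rgs5 and Cspg4 had the highest levels of this list in CPM and so weigh most in its sum. The summed level of 8 endothelial markers was between 604 and 857 CPM in WT and between 594 and 731 CPM in Axl KO mice (exact permutation test, p = 0.5). Of these 8 genes, 6 had a negative log2 fold change, and 1, Egfl7, had an unadjusted p below 0.05 (-0.31, unadjusted p = 0.0189 with edgeR). The summed level of the skeletal muscle markers gave p = 0.222 by the same exact permutation test. None of these permutation p values was adjusted for the number of marker sums compared. The part of these cell types in the Gas6 difference was not tested. Gas6 shares 34 bp of exon with Tmem255b on the opposite strand. Tmem255b had between 6 and 20 counts per mouse, against 186 to 472 for Gas6, and whether reads were counted by strand is not given in the sources used here.

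Pros1 (ENSMUSG00000022912, chr16:62854307-62929346, forward strand), which encodes protein S, did not differ between genotypes beyond the spread between mice. Its normalized counts were 22.0, 21.1, 19.3, 15.1 and 24.7 CPM in WT replicates 1 to 5 and 18.8, 19.7, 23.9, 17.8 and 19.0 CPM in Axl KO replicates 1 to 5. WT mice held both the highest and the lowest value of the 10. The means were 20.4 ± 3.54 CPM (SD, n = 5) in WT and 19.8 ± 2.37 CPM (SD, n = 5) in Axl KO mice. The log2 fold change was -0.04 (SE 0.123, 95% interval -0.31 to 0.22, adjusted p = 0.94 with edgeR's quasi-likelihood test), which corresponds to a level between 0.807 and 1.17 times that of WT. Its sign turned without WT replicate 5, to 0.03.

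Per kb of merged exon, the scale on which different genes can be compared, Gas6 was the most abundant member in WT mice and Tyro3 the least. The mean levels in WT were 19.1 ± 2.92 CPM per kb for Gas6, 8.56 ± 1.16 for Axl, 5.00 ± 0.865 for Pros1, 2.70 ± 0.238 for Mertk and 0.110 ± 0.0382 for Tyro3 (SD, n = 5 mice each). Among 16274 protein-coding genes with a count, these levels lay at percentiles 88.8, 76.1, 64.7, 51.3 and 18.6. Gas6 thus belonged to the more abundant messages of the depot, and Mertk to the middle of the range. Each neighbouring pair kept this order in 5 of 5 WT mice, with a mean gap of 2.22-fold between Gas6 and Axl, 1.72-fold between Axl and Pros1, 1.83-fold between Pros1 and Mertk and 25.9-fold between Mertk and Tyro3. For each pair the exact sign-flip test gave a two-sided p of 0.0625, the smallest that 5 mice allow, so no pair of neighbours could reach a p below 0.05.

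In Axl KO mice the order of the other members was the same in 5 of 5 mice, and Axl dropped from the second to the fourth place. Its level of 0.312 ± 0.128 CPM per kb (SD, n = 5) lay between Mertk, at 2.86 ± 0.318, and Tyro3, at 0.0761 ± 0.0402. Gas6 stood at 15.2 ± 2.65 and Pros1 at 4.85 ± 0.581 CPM per kb. Relative to all protein-coding genes with a count, Axl moved from percentile 76.1 to percentile 26.7.

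Summed over the 3 receptors, TAM receptor RNA was between 10.1 and 13.3 CPM per kb in WT mice and between 2.72 and 3.71 CPM per kb in Axl KO mice. The means were 11.4 ± 1.32 (SD, n = 5) in WT and 3.24 ± 0.378 (SD, n = 5) in Axl KO mice, or 28.5% of WT (exact permutation test, two-sided p = 0.00794, the smallest that 5 against 5 mice allow). The sum holds Axl, the targeted gene and its largest part in WT mice. This p therefore restates the loss of Axl and is no separate result. Axl made up 75.2 ± 1.80% of the receptor RNA in WT mice, and this share varied little from mouse to mouse, from 73.8 to 78.2%. In Axl KO mice its share was 9.40 ± 3.64% (SD, n = 5). Mertk made up 23.9 ± 1.74% in WT and 88.2 ± 4.43% in Axl KO mice (SD, n = 5 mice each). The summed RNA of Mertk and Tyro3 alone was 2.81 ± 0.234 CPM per kb in WT and 2.93 ± 0.296 CPM per kb in Axl KO mice (SD, n = 5), or 104.0% of WT (exact permutation test, two-sided p = 0.508). The larger share of Mertk in Axl KO mice thus came with a smaller total, not with a higher level of Mertk that passed the test.

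TAM ligand RNA, summed over Gas6 and Pros1, was between 19.1 and 28.8 CPM per kb in WT and between 15.9 and 24.2 CPM per kb in Axl KO mice. The means were 24.1 ± 3.76 (SD, n = 5) in WT and 20.04 ± 3.05 (SD, n = 5) in Axl KO mice, or 83.2% of WT (exact permutation test, two-sided p = 0.0952). Leaving out each of the 10 mice in turn, the exact permutation p ranged from 0.0317 to 0.206. The lowest came without WT replicate 4, the WT mouse with the least ligand RNA (ratio 0.791), the only omission with a p below 0.05. The highest came without Axl KO replicate 1 (ratio 0.876). Per unit of receptor RNA, ligand RNA was 2.12 ± 0.274 in WT and 6.27 ± 1.31 in Axl KO mice (SD, n = 5, exact permutation test, two-sided p = 0.00794), a ratio whose denominator holds Axl itself.

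**Figure D2:**
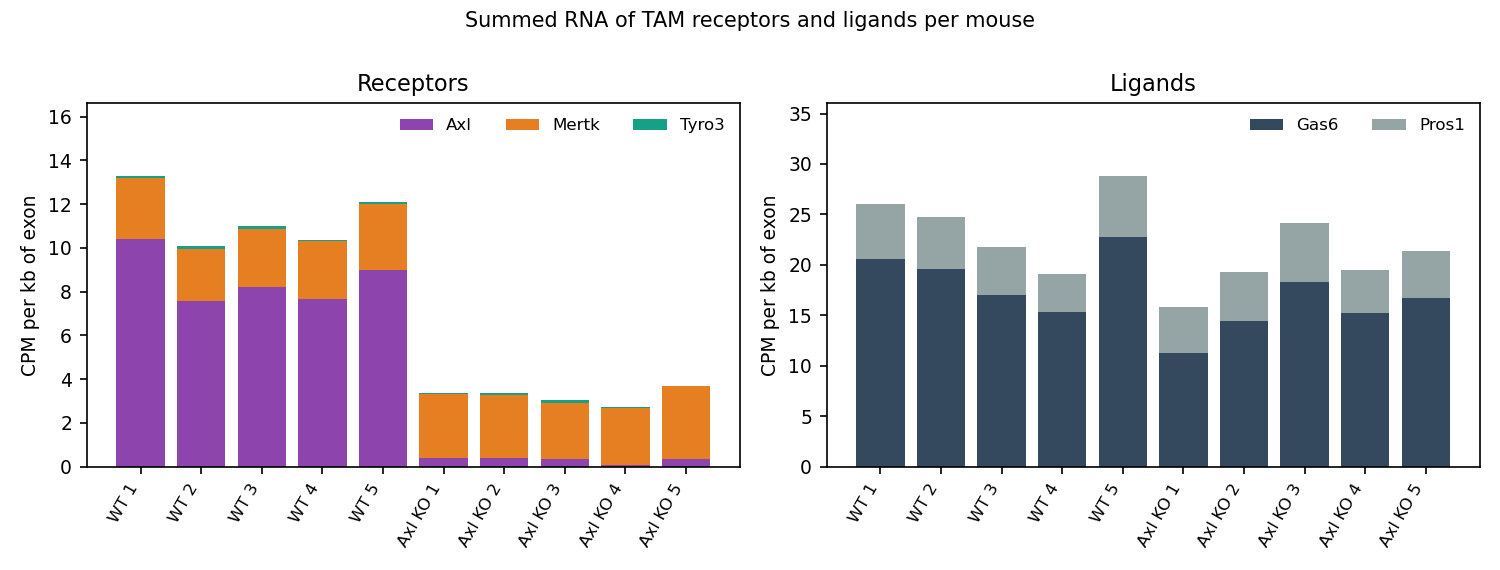
Stacked bars per mouse of the RNA of the 3 receptors (left) and of both ligands (right), in CPM per kb of merged exon on linear axes from 0. The receptor bars shorten in all 5 Axl KO mice by the loss of the Axl segment, from 10.1 to 13.3 down to 2.72 to 3.71, while the ligand bars of the genotypes overlap.

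The ratio of Gas6 to Pros1, which was looked at after the values of both genes had been seen, was lower in Axl KO mice. On the per kb scale, Gas6 exceeded Pros1 by 3.84, 3.81, 3.61, 4.16 and 3.77 times in WT replicates 1 to 5. In Axl KO replicates 1 to 5 it did so by 2.45, 3.00, 3.14, 3.50 and 3.59 times. The groups did not overlap, although the highest Axl KO mouse and the lowest WT mouse were almost level. The mean ratio was 3.84 ± 0.199 (SD, n = 5) in WT and 3.14 ± 0.456 (SD, n = 5) in Axl KO mice (exact permutation test, two-sided p = 0.00794, not adjusted for the choice of the ratio). The difference of -0.702 became -0.428 without Axl KO replicates 1 and 2 (exact permutation test, p = 0.0179). Of the 4 tested members taken singly, 1 had groups that did not overlap, namely Axl, the targeted gene. Over all genes tested, 1.35% had such groups. No such share was computed for ratios of 2 genes.

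**Figure D3:**
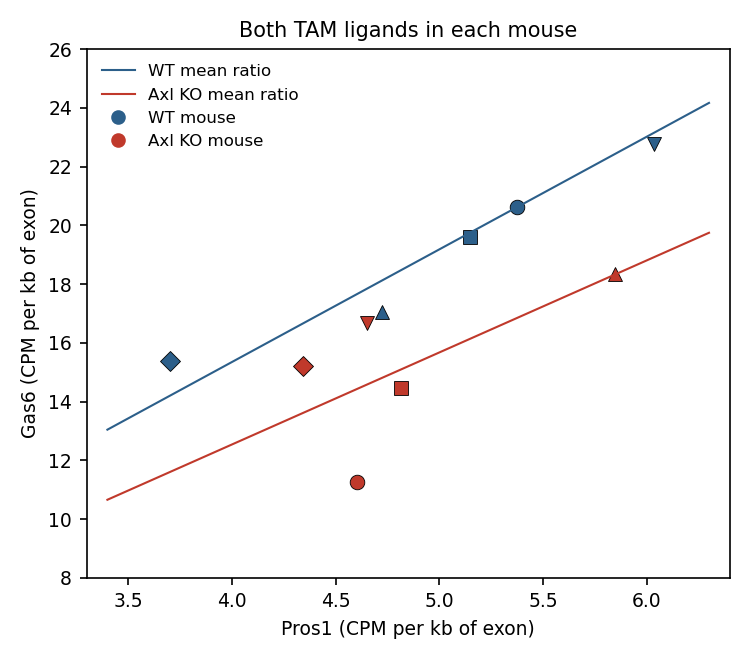
Gas6 against Pros1 in each mouse, both in CPM per kb of merged exon on linear axes that do not start at 0, with marker shapes for the replicate numbers and lines for the mean ratio of each genotype. The 5 Axl KO mice have ratios of 2.45 to 3.59 and the 5 WT mice ratios of 3.61 to 4.16.

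Within genotypes, both ligands tended to be high or low in the same mice. With each mouse taken as its deviation from the mean of its genotype on the log2 scale (n = 10), Gas6 and Pros1 had a Pearson r of 0.757 (permutation p = 0.0139, adjusted p = 0.104) and a Spearman rho of 0.806 (permutation p = 0.00799, adjusted p = 0.0599). Without the 2 mice farthest from the median r was 0.846. Pros1 and the macrophage markers had an r of 0.776 (permutation p = 0.00625, adjusted p = 0.0938) and a rho of 0.83 (permutation p = 0.00785, adjusted p = 0.0599), with an r of 0.761 without the 2 farthest mice. Mertk and the macrophage markers had an r of 0.426 (permutation p = 0.269) and a rho of 0.455 (permutation p = 0.22), with adjusted values of 0.473 and 0.457. Without the 2 farthest mice this r was 0.829 (adjusted permutation p = 0.143). Gas6 and the endothelial markers had an r of 0.653 (permutation p = 0.0474, adjusted p = 0.237). Their rho was 0.721 (permutation p = 0.0334, adjusted p = 0.137), and without the 2 farthest mice r was 0.283. Gas6 and the macrophage markers had an r of 0.611 (permutation p = 0.0866, adjusted p = 0.26). Their rho was 0.709 (permutation p = 0.0366, adjusted p = 0.137), and without the 2 farthest mice r was 0.77. Pros1 and the brown adipocyte markers ran in opposite directions, with an r of -0.62 (permutation p = 0.0831, adjusted p = 0.26). Their rho was -0.442 (permutation p = 0.252, adjusted p = 0.457), and without the 2 farthest mice r was -0.768. Of 15 relations computed among Mertk, Gas6, Pros1 and the markers of 4 cell types, none had an adjusted p below 0.05 by either measure. All points share their library and its depth with both measures.

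Of the 13738 other genes tested, those whose deviations were most like those of Mertk were Fbxo6 (Pearson r = 0.939), Gm37333 (0.919) and Nova1 (0.905), over 10 mice. For Gas6 they were Gm48617 (0.959), Man2c1 (0.953) and Sh3bgrl3 (0.949). For Pros1 they were Ldb2 (0.991), Col13a1 (0.966) and Ddr1 (0.956), the last of these a collagen receptor. These genes head a ranking of all genes over few mice, so high values are found by the search itself and no p is given.

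Around the receptors and ligands, no gene of the pathway lists passed an adjusted p of 0.05. Of 22 genes for adaptors and signalling partners of TAM receptors, which relay the signal to PI3K and AKT or to the cytoskeleton, 21 were tested and 0 had an unadjusted edgeR p below 0.05, with 6 positive and 15 negative log2 fold changes and a median of -0.03. Akt2, the most abundant of them in CPM and the AKT kinase of insulin action, was at 402 ± 32.5 CPM (SD, n = 5) in WT and 401 ± 12.9 CPM (SD, n = 5) in Axl KO mice. Pik3cb, a catalytic subunit of PI3K, had the lowest p of the list (log2 fold change -0.18, SE 0.103, unadjusted p = 0.101 with edgeR's quasi-likelihood test). Of 9 related receptor kinases and their ligands, 8 were tested and 0 had an unadjusted p below 0.05. Over all genes tested, 8.4% had such a p. The 8 genes had 2 positive and 6 negative log2 fold changes, with a median of -0.10. The lowest p values were those of Igf1r (log2 fold change -0.21, SE 0.103, unadjusted p = 0.0609 with edgeR) and Mst1r (-0.48, SE 0.225, unadjusted p = 0.063 with edgeR). Insr, the insulin receptor, was at 195 ± 12.7 CPM (SD, n = 5) in WT and 212 ± 17.6 CPM (SD, n = 5) in Axl KO mice.

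The vitamin K cycle, which GAS6 and PROS1 need for the carboxylation of their Gla domains, was present in the depot. All 7 of its listed genes were tested, 5 with a positive and 2 with a negative log2 fold change. Of these, 0 had an unadjusted edgeR p below 0.05, against 8.4% of all genes tested. The carboxylase gene Ggcx was at 39.8 ± 2.72 CPM (SD, n = 5) in WT and 40.9 ± 3.82 CPM (SD, n = 5) in Axl KO mice. Calu, which encodes calumenin, an inhibitor of the carboxylase system, had groups that did not overlap, as did 1.35% of all genes tested. It stood at 226 ± 8.68 CPM (SD, n = 5) in WT and 244 ± 9.96 CPM (SD, n = 5) in Axl KO mice (log2 fold change 0.11, unadjusted p = 0.0567 and adjusted p = 0.599 with edgeR). Of 14 other genes for Gla proteins, 5 passed the minimum of 1 CPM and 0 of these had an unadjusted p below 0.05, whereas the clotting genes F9, Proc and Proz had no count in any mouse. Matrix Gla protein, Mgp, was at 27.3 ± 4.61 CPM (SD, n = 5) in WT and 26.1 ± 2.90 CPM (SD, n = 5) in Axl KO mice.

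The lists for receptor shedding, phosphatidylserine exposure, other phosphatidylserine receptors and the LXR axis held 32 tested genes, of which 4 (12.5%, against 8.4% of all genes tested) had an unadjusted edgeR p below 0.05, all with an adjusted p of 0.571. They are the lists that held such a gene. Those for adaptors, related kinases, the vitamin K cycle and other Gla proteins, given above, had 0. The share over all pathway lists is therefore lower, and below that of all genes tested. A share of 12.5%, this near that of all genes, is not a result about these lists. Of 5 genes of receptor shedding, which releases the outer part of AXL and MERTK, this was Timp3, an inhibitor of the shedding proteases, with 271 ± 18.2 CPM (SD, n = 5) in WT and 226 ± 28.1 CPM (SD, n = 5) in Axl KO mice (log2 fold change -0.26, SE 0.084, unadjusted p = 0.00842). The proteases themselves, Adam10 and Adam17, had log2 fold changes of -0.01 and 0.14. Of 9 tested genes of phosphatidylserine exposure it was Bsg, which encodes basigin, a partner of a lipid scramblase, with 334 ± 35.6 CPM (SD, n = 5) in WT and 514 ± 200 CPM (SD, n = 5) in Axl KO mice (log2 fold change 0.62, SE 0.20, unadjusted p = 0.00878). The scramblase genes Xkr8 and Ano6 had log2 fold changes of 0.01 and -0.11.

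Of 11 tested genes for other phosphatidylserine receptors and bridging proteins, 2 had a positive and 9 a negative log2 fold change, with a median of -0.08, and 1, Lrp1, had an unadjusted edgeR p below 0.05. Lrp1, a receptor for lipoproteins and dying cells, was at 687 ± 91.6 CPM (SD, n = 5) in WT and 570 ± 49.2 CPM (SD, n = 5) in Axl KO mice (log2 fold change -0.27, SE 0.0923, unadjusted p = 0.0121). The bridging protein gene Mfge8 was at 127 ± 19.5 CPM (SD, n = 5) in WT and 121 ± 25.1 CPM (SD, n = 5) in Axl KO mice, and Cd36, the most abundant gene of the list in CPM, had a log2 fold change of 0.04. LXR nuclear receptors switch on Mertk in macrophages, and of 7 tested genes of that axis 6 had a positive log2 fold change, with a median of 0.09. Nr1h3, which encodes LXRα, had an unadjusted edgeR p of 0.0223, with 74.8 ± 3.8 CPM (SD, n = 5) in WT and 85.5 ± 8.92 CPM (SD, n = 5) in Axl KO mice. Its target Abca1 had a log2 fold change of 0.16 (SE 0.0881, unadjusted p = 0.0989 with edgeR).

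**Figure D4:**
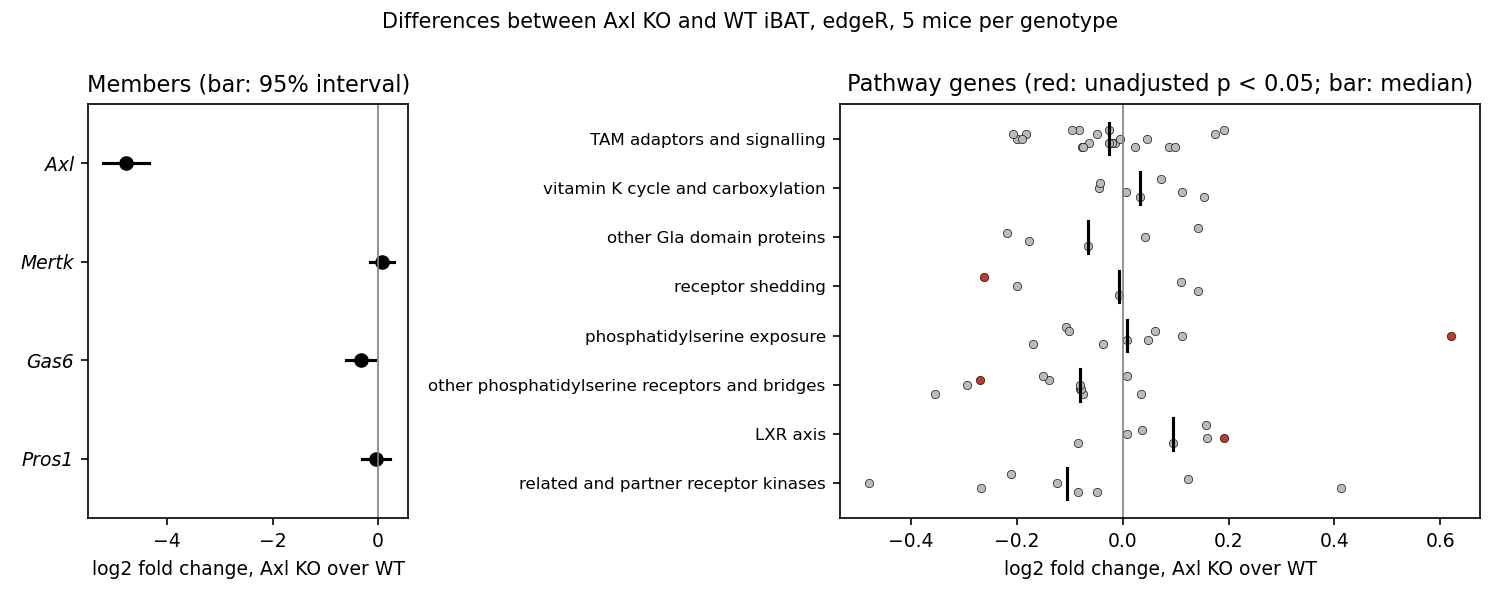
Log2 fold changes between Axl KO and WT iBAT from edgeR (5 mice per genotype). Left, the 4 tested members with their 95% intervals. Right, on a narrower axis, each tested gene of 8 pathway lists as a point, red where the unadjusted p was below 0.05, with a bar at each list's median. Axl stands apart at -4.78, Gas6 has an interval just below 0, and 4 genes of the lists are red.

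The genes around Axl were examined because the allele was targeted to this locus. Of 24 protein-coding genes whose start lay within 500 kb of the start of Axl, 11 were tested. Of these, 0 had an unadjusted edgeR p below 0.05, against 8.4% of all genes tested. With 11 genes, a count of 0 is near that share and is not a result about the locus. The median log2 fold change was 0.03, with a range from -0.12 to 0.91. The nearest tested gene on the side of lower coordinates, Hnrnpul1, started at -33948 bp from it and was at 77.7 ± 3.45 CPM (SD, n = 5) in WT and 75.3 ± 1.67 CPM (SD, n = 5) in Axl KO mice (log2 fold change -0.04, SE 0.0502, unadjusted p = 0.394). On the other side it was Cyp2b10, a cytochrome P450 gene, at 108915 bp. Its levels varied widely within both genotypes, from 14.6 to 137 CPM in WT and from 11.3 to 281 CPM in Axl KO mice, and its log2 fold change was 0.91 (SE 0.715, unadjusted p = 0.227 with edgeR). Lipe, which encodes hormone-sensitive lipase and lies in the same window, was at 1613 ± 83.9 CPM (SD, n = 5) in WT and 1531 ± 91.1 CPM (SD, n = 5) in Axl KO mice.

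**Figure D5:**
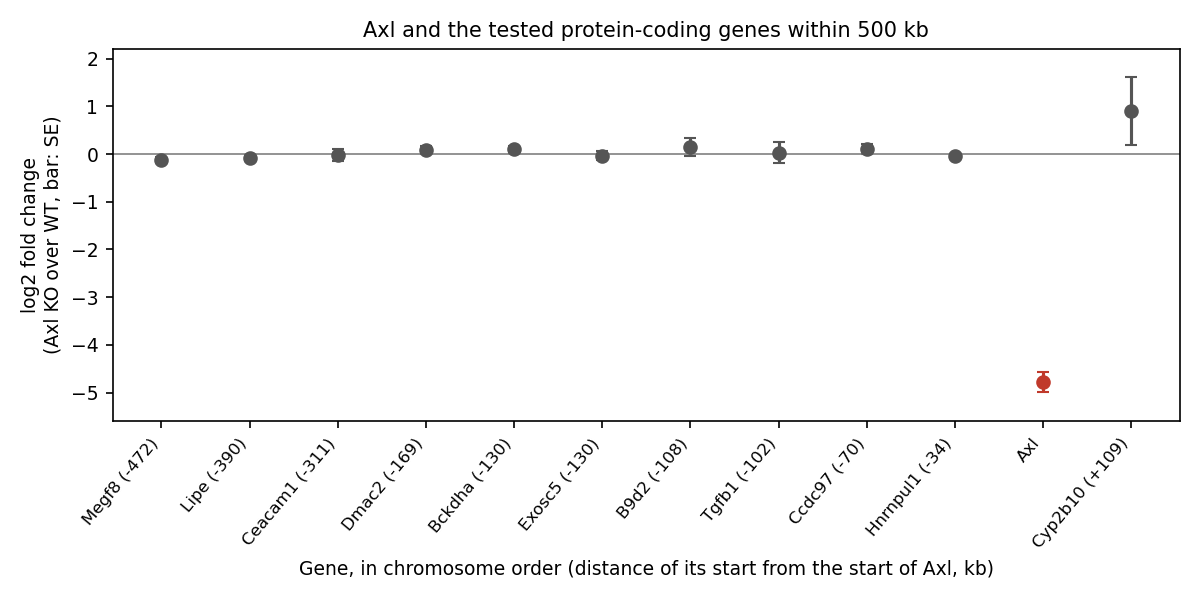
Log2 fold change (Axl KO over WT, bars for the SE) of Axl and of the 11 tested protein-coding genes that start within 500 kb of it, in chromosome order, with the distance of each start in kb in parentheses. Axl lies at -4.78, 10 neighbours lie close to 0, and Cyp2b10 lies at 0.91 with a wide error bar.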

How the data were processed

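Bulk RNA-seq covered whole iBAT of 5 Axl KO and 5 WT mice. The authors deposited 1 table per mouse of raw counts per Ensembl gene, neither normalized nor pooled. The submitters' processing notes name Trimmomatic 0.36, STAR 2.6.1c and GRCm38.p5, whereas the paper names Trim Galore and hisat2. The labels give polyA RNA, whereas the paper gives rRNA-depleted RNA. The counting tool, its use of strand and of reads that match several genes are not given in the sources used here. Identifiers were matched to GENCODE M21, from which exon lengths and sequences were taken.

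Counts were compared in R 4.3.3 with edgeR 4.0.16 (TMM, quasi-likelihood, no covariate, Benjamini-Hochberg adjustment) over genes with a mean above 1 CPM, after a test on simulated data. Single values were compared by exact permutation in scipy 1.17.1, and DESeq2 1.42.0 was an alternative. Levels per kb are CPM over the merged exon length. Pathway genes named were those with an unadjusted p below 0.05, with the lowest p or the highest level, plus genes of known role picked after their values were seen. Members and lists were chosen with earlier results of these data known. Libraries differed from each other by more than sampling noise, so each mouse counts once.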

Additional observations from a re-analysis of the deposited data

Results flagged for a closer look

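Axl stood at 0.437 CPM in Axl KO replicate 4, below the 1.69 CPM of the next lowest Axl KO mouse. The gap was 0.801 of the range of the 5 mice, above Dixon's critical value of 0.71. The level rests on 3 counts. Of 16 groups of values examined this was the only one with such a gap, and 0.8 would be met by chance.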

How the results depend on the processing

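Of 196 values recomputed under alternatives for 28 results, 186 kept their direction and their side of the threshold. Axl was called under all 18 alternatives, with log2 fold changes from -5.05 to -4.54. No alternative brought Mertk, Gas6 or Pros1 below an adjusted p of 0.05. DESeq2 called 9 genes where edgeR called 1, and the cause was not tested. Leaving out single mice, the log2 fold change ranged from -4.88 to -4.54 for Axl, from 0.01 to 0.12 for Mertk, from -0.41 to -0.24 for Gas6 and from -0.13 to 0.03 for Pros1, where the value of 0.0317 without WT replicate 5 had the opposite sign. The ligand ratio (Axl KO over WT) ranged from 0.789 to 0.876 and the receptor ratio from 0.275 to 0.298. The difference in the Gas6 to Pros1 ratio ranged from -0.816 to -0.53. Leaving out Axl KO replicates 1 and 2 together, and every alternative for that ratio, were chosen after seeing the data.

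With the longest coding transcript as length, the log2 gap in WT was 0.914 between Gas6 and Axl and 1.17 between Pros1 and Mertk, because merged exons of Axl and Pros1 are longer than that transcript. Without the 2 mice farthest from the median, r turned to -0.0745 for Mertk and Gas6, to -0.229 for endothelial markers and Mertk and to -0.253 for endothelial markers and Pros1.

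Replicate numbers were shared between genotypes without a source that ties them to litters, and same-numbered mice deviated together (correlation over 0.1) in 1 of 5 pairs. With a replicate block the log2 fold changes were -4.79 for Axl, 0.08 for Mertk, -0.33 for Gas6 and -0.03 for Pros1, with 1 gene called. The sign-flip form of the replicate block, which cannot give a p below 0.0625, left the receptor ratio at 0.285 and the difference in the Gas6 to Pros1 ratio at -0.702. Depth limits Tyro3 and the residual Axl counts most.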
